A study of Citrus reticulata with 36 samples.

Results

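The 100 features described here had a lower level in the cultivar labelled MT than in the cultivar labelled WT in every tissue and stage that was sampled, judged by group medians. They were taken from the 128861 features of the deposited count table. Each count was divided by the library total and scaled to CPM, the usual unit of counts relative to the library total, and M was the median of log2(CPM + 1) over the 3 libraries of a group. Of the 40462 features with M of at least 2 in some group, 998 (2.47%) had a higher M in WT in all 6 pairs of tissue and stage, and 1292 (3.19%) had a higher M in MT in all 6. The 100 features are those of the 998 with the largest value of the smallest of their 6 differences. The cultivar difference therefore chose these features, and its values below are a description with no test.

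The libraries come from ovules of ponkan mandarin (Citrus reticulata), from which nucellus and integument were cut by laser capture microdissection, a method that isolates chosen cells from a tissue section. MT is the cultivar Huagan No.4 ponkan and WT the cultivar Egan No.1 ponkan, and the labels do not spell out MT. Each tissue was taken at 18, 28 and 32 days after pollination (DAP) from both cultivars, with 3 libraries in each of the 12 groups and 36 libraries in all. Captures yield little RNA, which was amplified with random primers by the SPIA method before sequencing, per the labels' protocols. No group carries a treatment or a transgene, and the comparison of MT with WT is a comparison of whole cultivars.

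The nucellus is the maternal tissue in which the embryo sac forms, and the integument is the layer around it that later forms the seed coat. In many Citrus types, cells of the nucellus also give rise to asexual embryos that carry the genotype of the mother plant. The feature identifiers carry no gene names, so neither a function nor a tissue marker can be given, and the labelled tissues could not be checked against defining genes. Each library is a bulk capture, in which fewer cells of a type and less RNA per cell cannot be told apart.

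Total counts were between 12976584 and 20519248 in the 18 MT libraries, with a median of 16724924, and between 12687779 and 20947644 in the 18 WT libraries, with a median of 19212440. The number of features above 0 had a median of 61872 in MT libraries and 66203 in WT libraries. Both quantities thus moved with cultivar, and their part in the differences described here was not tested. A level of 3 counts, taken as an approximate upper bound where the count is 0, was between 0.143 and 0.236 CPM, for counting error only. Replicate 1 of the WT nucellus at 28 DAP stood apart from the rest. Its 100 most abundant features held 51.75% of its counts, the highest share of the 36 libraries, and it had the lowest number of features above 0, 55947. Its TMM factor, edgeR's scaling of the library total, was 0.592, the lowest of the 36. Levels in CPM, M and the separation counts below carry no such scaling. Results tested below are also given without this library and without replicate 1 of the WT integument at 28 DAP.

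The 100 features were moderately expressed. Their mean level had a median of 6.01 CPM over the MT libraries, with a range of 0.681 to 310.6 CPM, and of 9.55 CPM over the WT libraries, with a range of 1.43 to 442.5 CPM. In WT, 32 features averaged under 5 CPM, 59 were between 5 and 50 CPM and 9 were at 50 CPM or more. Scaled to length, the median of the mean level was 3.69 FPKM in MT and 6.31 FPKM in WT, beside 2.94 and 2.86 FPKM over the 57344 features that passed the filter on low counts. All 100 passed that filter. The rule also required M of at least 2 in some group, which the wider set did not have to reach, so these medians are not like for like. The feature length implied by the count and FPKM tables had a median of 1856 bases, beside 1975 bases for the 54103 tested features for which it could be computed. This implied length is a ratio of deposited values and need not be the length of the transcript.

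The difference between cultivars was one of degree. The ratio of the mean CPM in MT to that in WT had a median of 0.639, with a range of 0.322 to 0.828. Stated the other way, the WT mean was at least 2 times the MT mean for 18 features and under 1.5 times for 38. None of the 100 was at 0 in every MT library, and 84 were above 0 in all 36 libraries. Among all values of these features, 23 were at 0 counts, 12 in MT libraries and 11 in WT libraries. All 11 of the WT values were in the replicate 1 libraries at 28 DAP, 6 in nucellus and 5 in integument.

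The median difference M(WT) minus M(MT) over the 100 features was 0.59, 0.55 and 0.64 on the log2(CPM + 1) scale in nucellus at 18, 28 and 32 DAP. In integument it was 0.65, 0.43 and 0.90 at the same stages. The difference was smallest at 28 DAP for most features, in integument for 33 and in nucellus for 26, and it was largest in integument at 32 DAP for 35. The smallest of the 6 differences lay between 0.26 and 0.66 with a median of 0.32. It exceeded the feature's own pooled standard deviation (SD) between libraries of a group for 9 of the 100, while the median of the 6 differences exceeded it for 68. That SD had a median of 0.53 over the 100 features and 0.41 over all tested features.

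**Figure D1:**
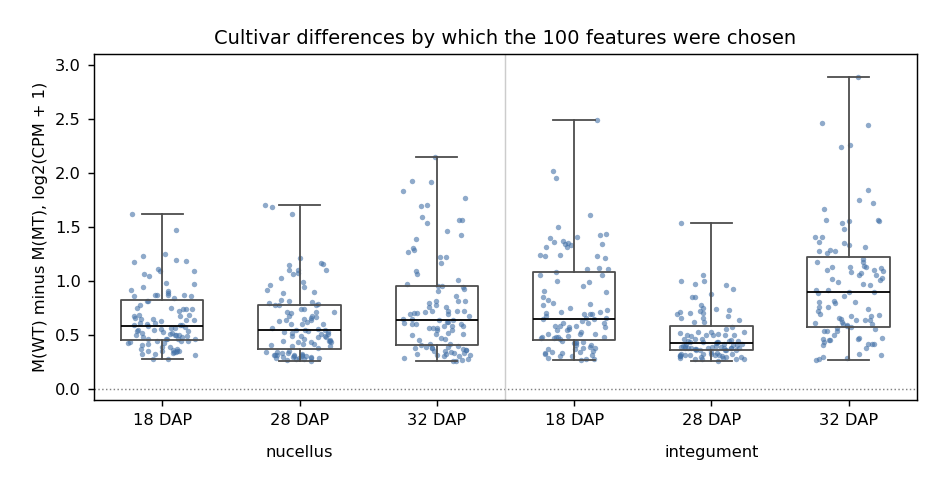
Difference M(WT) minus M(MT) of each of the 100 features (points) by tissue and stage, on the log2(CPM + 1) scale, with boxes at the quartiles, a line at the median and whiskers over the whole range. All points lie above 0 because the features were chosen so; the medians are 0.59, 0.55 and 0.64 in nucellus and 0.65, 0.43 and 0.90 in integument.

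Group medians hid a good deal of overlap between libraries. All 3 WT libraries lay above all 3 MT libraries for 25, 15 and 41 of the 100 features in nucellus at 18, 28 and 32 DAP, where 4.61%, 2.96% and 9.22% of all tested features did. In integument the counts were 28, 18 and 55 features, where 7.54%, 5.99% and 13.1% of all tested features did. Since this is the contrast that chose the features, these counts show only how far their libraries were apart. Across the 6 pairs of tissue and stage, 14 features were separated in 0 pairs, 28 in 1, 33 in 2, 14 in 3, 9 in 4 and 2 in 5. None was separated in all 6, and for none did all 18 WT libraries lie above all 18 MT libraries. The word consistent thus applies to the group medians of these features and not to their single libraries.

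Summed over the 100 features, the level was 1278 to 2152 CPM in MT libraries, with a median of 1563, and 1707 to 3107 CPM in WT libraries, with a median of 2519. The 3 most abundant features by mean CPM in WT held 39.93% of the summed level in WT. They were c26677_g1, c112081_g1 and c77414_g1, at 442.5, 327.0 and 199.7 CPM, and c112081_g1 is named only for this. The sums of MT and WT libraries did not overlap at 18 DAP in either tissue or at 32 DAP in integument. They overlapped at 28 DAP in both tissues and at 32 DAP in nucellus, where the highest MT sum was 2089 CPM and the lowest WT sum 1913 CPM. The overlap in nucellus at 32 DAP rests on the 3 most abundant features. Without them the highest MT sum there was 1146 CPM and the lowest WT sum 1468 CPM, while at 28 DAP both tissues still overlapped. The same holds, again on CPM without TMM scaling, when every feature has the same weight. Whether the libraries at 28 DAP overlap after TMM scaling was not tested. The median over features of the level minus the feature's mean was -0.60 to 0.06 in MT libraries and -0.47 to 0.72 in WT libraries. The lowest WT values were -0.47 in nucellus and -0.17 in integument, both in replicate 1 at 28 DAP, and in nucellus that replicate lay below all 3 MT libraries of the same tissue and stage. The TMM factor of that WT nucellus library was 0.592, against 0.924 to 1.134 in those MT libraries. What part this had in its low level was not tested. In nucellus at 32 DAP the highest MT value was 0.06 and the lowest WT value 0.33.

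**Figure D2:**
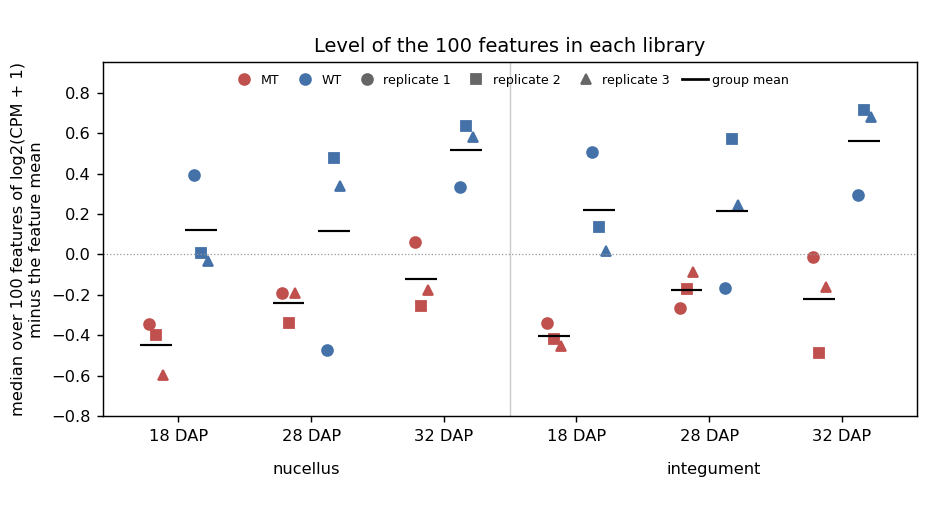
Median over the 100 features of log2(CPM + 1) minus the feature's mean, for each of the 36 libraries by tissue, stage, cultivar (colour) and replicate (symbol), with a line at the group mean. MT libraries lie between -0.60 and 0.06 and WT libraries between -0.47 and 0.72, and replicate 1 of WT at 28 DAP is the lowest WT library in both tissues. The levels carry no TMM scaling.

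The feature with the largest smallest difference was c80306_g1, at 0.66. In nucellus at 18 DAP its level was 6.50, 4.38 and 4.67 CPM in the MT libraries, against 11.8, 5.86 and 16.5 CPM in the WT libraries. In integument at 18 DAP it was 4.96, 6.83 and 7.82 CPM in MT, against 19.8, 6.36 and 20.4 CPM in WT. At both sites replicate 2 of WT lay within the range of MT and the other two WT libraries lay above it. At 28 DAP the nucellus had 5.82, 3.66 and 4.35 CPM in MT, against 10.3, 15.1 and 5.72 CPM in WT, and the integument had 4.99, 3.50 and 5.86 CPM in MT, against 8.45, 14.1 and 5.14 CPM in WT. Here replicate 3 was the low WT library in both tissues. At 32 DAP the nucellus had 6.61, 6.84 and 14.8 CPM in MT, against 5.87, 16.5 and 13.2 CPM in WT, and the integument had 4.15, 4.62 and 12.7 CPM in MT, against 5.02, 19.6 and 15.6 CPM in WT. Replicate 1 was then the low WT library and replicate 3 the high MT library in both tissues. Over the 18 libraries of each cultivar, the mean of c80306_g1 was 6.28 ± 2.99 CPM for MT and 12.0 ± 5.50 CPM for WT (SD), and no pair of tissue and stage was fully separated.

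The next features by this measure were c100595_g1 at 0.60, c42459_g1 at 0.55 and c102884_g1 at 0.52. The level of c100595_g1 ran from 0.0677 to 16.4 CPM in MT, with a median of 2.03, and from 0 to 12.2 CPM in WT, with a median of 6.86. Its highest library was thus an MT library, integument at 32 DAP. The level of c42459_g1 ran from 0.0663 to 19.8 CPM in MT, with a median of 2.44, and from 0 to 18.8 CPM in WT, with a median of 4.54. The level of c102884_g1 ran from 0.0999 to 2.70 CPM in MT, with a median of 1.04, and from 0.487 to 5.34 CPM in WT, with a median of 2.00. It was separated in 3 of the 6 pairs, and the ranges of the cultivars overlapped for all of these features.

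At the other end of the list, the last features inside were c66930_g1 and c100276_g1, both with a smallest difference of 0.26, and the first left out were c100931_g1 and c25265_g1, also at 0.26. No gap marks the end of the list at 100. The difference between cultivars was most even for c34984_g1, from 0.32 to 0.47 over the 6 pairs, with a mean level of 18.7 ± 6.57 CPM in MT and 25.4 ± 9.95 CPM in WT. It was least even for c92487_g1, from 0.38 in integument at 28 DAP to 2.89 in integument at 32 DAP. Its mean was 4.49 ± 4.56 CPM for MT and 9.58 ± 6.60 CPM for WT, and it was at 0 in 3 libraries, 1 of them MT.

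The most abundant features per length were c26677_g1, c77414_g1 and c48262_g1. Their mean levels were 243.3, 109.3 and 79.7 FPKM in MT, against 343.1, 149.7 and 133.9 FPKM in WT. For c48262_g1 the implied length was 70.7 bases, the shortest of the 100, so that its FPKM rests on few counts, 6.34 ± 10.1 CPM in MT and 9.90 ± 6.85 CPM in WT. The level of c26677_g1 was 310.6 ± 107.3 CPM in MT and 442.5 ± 188.5 CPM in WT. Its low WT libraries were those in which c80306_g1 was low. At 18 DAP replicate 2 had 251.3 CPM in nucellus and 273.1 in integument, at 28 DAP replicate 3 had 176.0 and 172.0, and at 32 DAP replicate 1 had 176.2 and 181.3. Each of the other WT libraries held at least 391.5 CPM of it.

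The features with the cleanest separation, chosen here after their values were seen, were c3279_g1 and c107847_g1, each separated in 5 of the 6 pairs. In nucellus, c3279_g1 had 21.5, 15.2 and 18.9 CPM at 18 DAP in MT, against 31.0, 36.1 and 30.6 CPM in WT. At 32 DAP the nucellus had 37.6, 29.6 and 40.4 CPM in MT, against 56.2, 56.2 and 57.0 CPM in WT. The exception was the nucellus at 28 DAP, with 21.5, 31.6 and 44.3 CPM in MT, against 50.8, 42.1 and 51.7 CPM in WT, where 1 MT library exceeded the lowest WT library. In integument the highest MT library of each stage lay below the lowest WT library at all 3 stages. Over all libraries the mean of c3279_g1 was 26.4 ± 8.67 CPM for MT and 42.7 ± 9.33 CPM for WT. The mean of c107847_g1 was 37.2 ± 8.50 CPM for MT and 54.3 ± 13.6 CPM for WT (SD, 18 libraries for each cultivar).

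**Figure D3:**
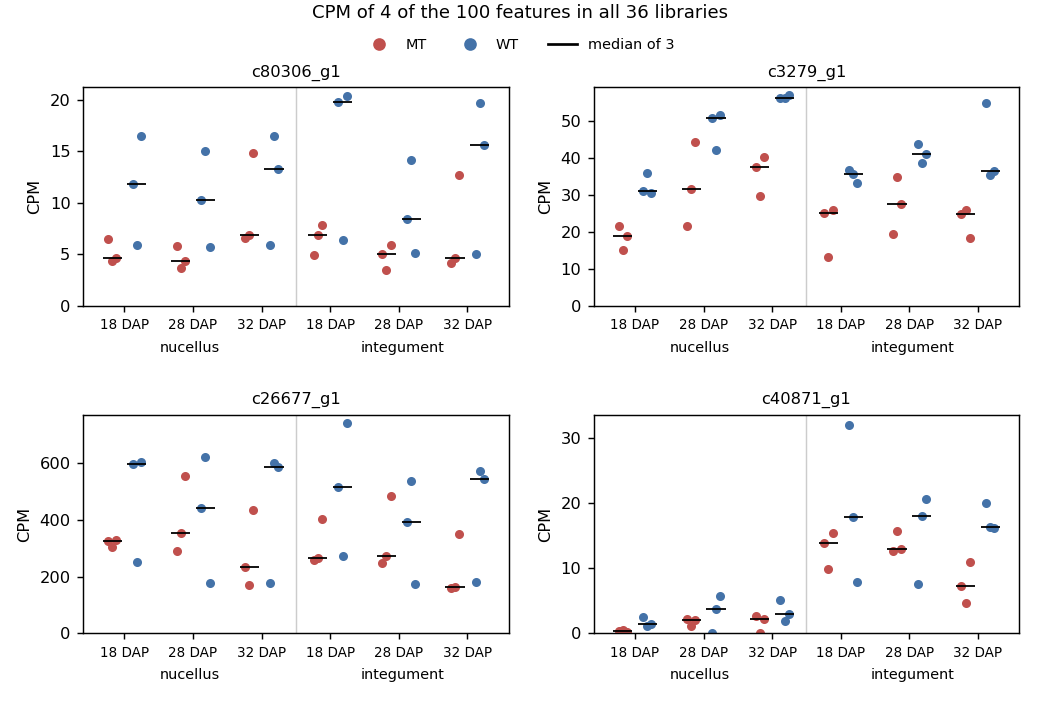
CPM of c80306_g1, c3279_g1, c26677_g1 and c40871_g1 in all 36 libraries by tissue, stage and cultivar; points are libraries and lines the median of 3, and the 4 vertical axes start at 0 and differ in scale. c80306_g1 and c26677_g1 share the same low WT libraries in both tissues, c3279_g1 overlaps between cultivars only in nucellus at 28 DAP, and c40871_g1 is higher in integument.

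Libraries with the same replicate number in nucellus and integument carried much of the same spread. For each feature, the deviation of each library from its group mean was correlated between the 18 nucellus libraries and the integument libraries of the same cultivar, stage and number. Over the 100 features this correlation had a median r of 0.662, with quartiles of 0.409 and 0.791, and was above 0 for 93. Over all tested features the median was 0.365, with quartiles of 0.0997 and 0.595. It exceeded 0.8 for 24 of the 100 and for 6.455% of all tested features. These are descriptions, since the points share libraries and the features are not independent. The rule used the same libraries and asked for the same direction in both tissues. That can favour features whose spread is shared between tissues, so the higher r of the 100 is no test.

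Some of the features moved together from library to library. The deviations of c80306_g1 over the 36 libraries correlated at r above 0.8 with those of 10 other features of the list. Among all tested features other than itself 36 passed this bound, or 0.0628%. The closest were c65344_g1 with r of 0.943, c77727_g1 with 0.927, c19249_g1 with 0.926 and c77414_g1 with 0.905, and c26677_g1 had 0.892. The feature c80306_g1 was taken as the centre because it heads the list, and the bound was set after the values were seen. The rule chose the list in the same 36 libraries, so features that follow c80306_g1 could enter it more easily. The 10 features and the 0.0628% are therefore a description and no test. Within the list as a whole, the mean correlation of deviations between 2 features was 0.175, and it was 0.103 over all tested features. The features close to c80306_g1 thus shared much of their spread between libraries, and their 6 differences are not independent readings.

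Tissue was not used to choose the features, and it was tested over all 36 libraries, with nucellus set against integument inside each cultivar and stage and the 6 differences averaged. By edgeR's quasi-likelihood test at a Benjamini-Hochberg adjusted p under 0.05, 18 of the 100 features were higher in nucellus and 25 were higher in integument. Over all tested features the shares were 16.6% and 18.9%. In either direction 43 of the 100 were called, beside 35.5% of all tested features. The median log2 fold change was -0.02 over the 100 features and 0.04 over all tested features. A change of more than 4-fold was found for 5 of the 100 and for 7.84% of all tested features. The rule asks for a higher WT median in every pair of tissue and stage, which a feature silent in one tissue could not meet. Whether this bears on the share over 4-fold was not tested. Without both replicate 1 libraries of WT at 28 DAP, 46 features were called, beside 35.7% of all features then tested, and 42 of them were among the 43. This test did not pair same-numbered libraries of the tissues. With a replicate block, which does so within cultivar and stage, 53 features were called, among them all 43. The share of all tested features also rose under the block and is given with the processing.

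The features highest in nucellus relative to integument were c42459_g1 and c70945_g1. The level of c42459_g1 averaged 8.27 ± 5.99 CPM in nucellus and 2.16 ± 2.09 CPM in integument (SD, 18 libraries each), a log2 fold change of 2.06 ± 0.42 (SE) with an edgeR adjusted p of 0.000224. It ran from 0.780 to 19.8 CPM in nucellus and from 0 to 7.41 CPM in integument, so the tissues overlapped. The level of c70945_g1 averaged 1.88 ± 1.71 CPM in nucellus and 0.544 ± 0.528 CPM in integument, with an edgeR adjusted p of 5.1e-05.

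The features highest in integument relative to nucellus were c40871_g1 and c61013_g1. The level of c40871_g1 ran from 0.0493 to 5.72 CPM in nucellus, with a median of 2.00, and from 4.68 to 31.9 CPM in integument, with a median of 14.6. Its log2 fold change of nucellus over integument was -3.16 ± 0.30 (SE), with an edgeR adjusted p of 5.11e-10, and the ranges overlapped at their edges. The level of c61013_g1 averaged 0.544 ± 0.393 CPM in nucellus and 2.75 ± 2.62 CPM in integument, a log2 fold change of -2.31 ± 0.39 with an edgeR adjusted p of 1.46e-05. On the log2(FPKM + 1) scale, which understates changes of low features, limma gave smaller differences of -0.49 for c61013_g1 and 0.61 for c70945_g1, and both were still called.

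All 18 integument libraries lay above all 18 nucellus libraries for 1 of the 100 features, beside 1.38% of all tested features, and the reverse held for 0, beside 0.558%. The 1 feature, named after its values were seen, was c17470_g1. It ran from 0.985 to 3.48 CPM in nucellus and from 3.51 to 13.9 CPM in integument, with a log2 fold change of -1.65 ± 0.15 and an edgeR adjusted p of 1.68e-10.

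**Figure D4:**
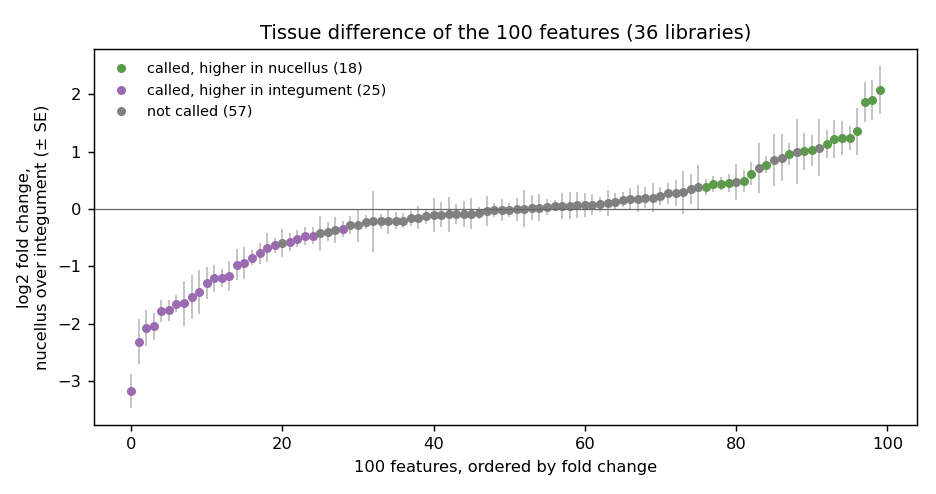
Log2 fold change of nucellus over integument for each of the 100 features, ordered by size, with bars of 1 standard error, from edgeR's model over 36 libraries. Of these, 18 features are called higher in nucellus, 25 higher in integument and 57 are not called; the lowest is c40871_g1 at -3.16 and the highest c42459_g1 at 2.06.

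Stage was tested within each tissue against 18 DAP, as the mean over both cultivars. No single feature of the 100 passed an edgeR adjusted p under 0.05 in any of the 4 comparisons. Few features of the whole table did: 0.131% and 0.0924% in nucellus at 28 and 32 DAP, and 0% and 0.0279% in integument. At an unadjusted p under 0.05, the 100 features gave 20 in nucellus at 28 DAP and 19 at 32 DAP, 23 in integument at 28 DAP and 20 at 32 DAP. The shares of all tested features at that bound were 13.8%, 8.62%, 9.58% and 9.47%. Of these features of the list, 19, 19, 20 and 19 were higher at the later stage, beside 7.65%, 4.43%, 4.57% and 4.45% of all tested features.

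The stage values of the 100 features lay above 0 more often than those of the table. The log2 fold change over 18 DAP was positive for 70 features in nucellus at 28 DAP and for 93 at 32 DAP, where 50.24% and 51.43% of all tested features were positive. In integument it was positive for 69 and 78 features, where 50.76% and 50.84% were. The medians were 0.40 and 0.47 in nucellus and 0.29 and 0.31 in integument, while those of all tested features were between 0.00 and 0.01. These medians describe the list, whose features are not independent of each other, and no feature of it was called. Both comparisons of a tissue share the 18 DAP libraries. The number of features above 0 also moved with stage in places. In MT nucellus it was 59573 to 61762 at 18 DAP and 65819 to 69127 at 32 DAP. In WT integument it went the other way, from 66234 to 67490 at 18 DAP to 62369 to 65125 at 28 DAP. Elsewhere its ranges overlapped with those at 18 DAP. Total counts moved with stage too. In MT nucellus they were 13464464 to 15069470 at 18 DAP and 15972101 to 20519248 at 28 DAP. In MT integument they were 15091756 to 16938580 at 18 DAP and 17228193 to 20027406 at 28 DAP. In WT nucellus they were 14444012 to 18801753 at 18 DAP and 18926755 to 19916693 at 32 DAP. The part of either quantity in the stage values was not tested.

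Within each cultivar the median feature lay above its 18 DAP level, by little in WT integument at 28 DAP. In the MT libraries, the median difference of M from 18 DAP was 0.25 and 0.28 in nucellus at 28 and 32 DAP and 0.21 and 0.14 in integument. In the WT libraries it was 0.22 and 0.42 in nucellus and 0.05 and 0.31 in integument. In WT integument at 28 DAP 53 of the 100 features were above their 18 DAP level, and in the other comparisons 62 to 84 were. On this scale, which has no TMM scaling, the medians of all tested features were -0.03, 0.01, -0.04 and 0.00 in MT and -0.12, 0.00, -0.10 and 0.02 in WT, in the same order. With 3 libraries a group, a difference between the cultivars in these values was not tested.

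**Figure D5:**
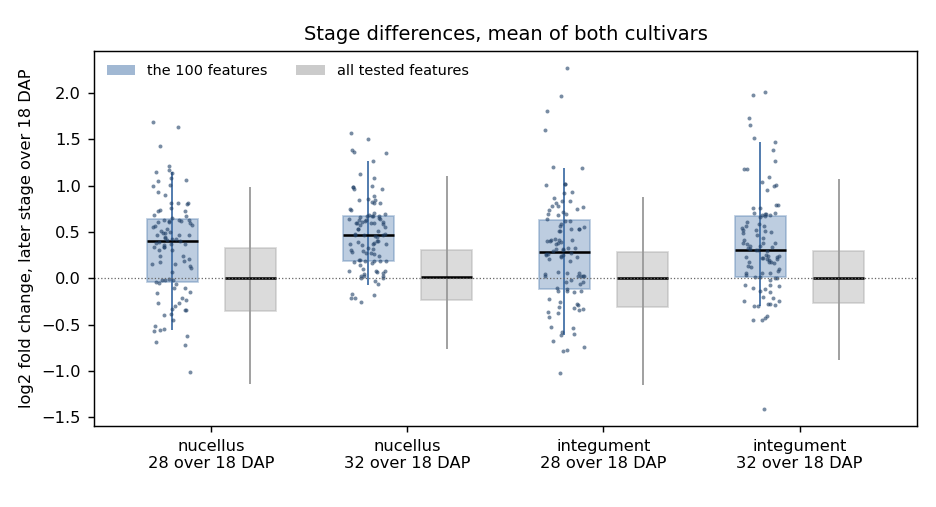
Log2 fold change over 18 DAP at 28 and 32 DAP in nucellus and integument, as the mean of both cultivars, for the 100 features (blue, with points for single features) and for all tested features (grey); boxes are quartiles, lines in them medians, and vertical lines the 5th to 95th percentile. Medians of the 100 features are 0.40, 0.47, 0.29 and 0.31, those of all tested features lie between 0.00 and 0.01, and no single feature of the 100 passed the adjusted threshold.

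The smallest adjusted p in the stage comparisons belonged to c23642_g1 in nucellus, named here for that reason. Its level was 6.95, 14.5 and 6.55 CPM in MT and 7.44, 12.7 and 11.1 CPM in WT at 28 DAP, against 4.31, 5.05 and 2.64 CPM in MT and 7.48, 8.87 and 3.24 CPM in WT at 18 DAP. The 6 libraries averaged 9.87 ± 3.36 CPM at 28 DAP and 5.27 ± 2.44 CPM at 18 DAP, a log2 fold change of 1.14 ± 0.26 with an edgeR adjusted p of 0.0618. The level of c3279_g1 in nucellus averaged 46.2 ± 11.8 CPM at 32 DAP and 25.5 ± 8.17 CPM at 18 DAP, with an edgeR adjusted p of 0.192. In integument the smallest adjusted p was 0.194, for c7138_g1, by edgeR's model. It ran from 0.493 to 4.65 CPM at 32 DAP, with a median of 1.77, and from 0 to 1.89 CPM at 18 DAP, with a median of 0.305, so the stages overlapped.

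Whether any of the 100 passed in the stage comparisons depended on single libraries and on the tool. In nucellus at 28 DAP against 18 DAP, 3 features passed the edgeR threshold without both replicate 1 libraries of WT at 28 DAP, beside 0.498% of all features then tested. In the same comparison 5 passed without replicate 1 of the MT nucellus at 28 DAP, beside 1.17%. DESeq2 called 7 features there, beside 1.58%, and 1 in each of the other comparisons, beside 0.53% in nucellus at 32 DAP and 0.316% and 0.715% in integument at 28 and 32 DAP. In integument at 28 DAP, 2 features passed without both replicate 1 libraries of WT at 28 DAP, beside 0.932%. All features of the list called in these ways were higher at the later stage.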

How the data were processed

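RNA-seq of 36 laser-captured samples was analysed from the count and FPKM tables that the authors deposited. Per the submitters' processing notes, cutadapt, Bowtie2, RSEM and DESeq made the tables. Their versions and the reference sequence are not given in the sources used here. Deposited counts are whole numbers and were taken as RSEM estimated counts (expected counts) rounded by the authors, a step no source records. RSEM splits reads between similar sequences, so a near-identical copy can share counts. The FPKM values, fragments scaled to length and library total, were deposited by the authors under that name. Column names give the stage as a digit from 1 to 3, read as 18, 28 and 32 DAP in the order of the design text, on which every DAP depends. The blank last column of the count table was not used, and 0 columns belonged to other samples. Sequencing used 2 instrument models, which the labels do not assign to libraries.

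CPM used the column sums. Tests used edgeR 4.0.16 in R 4.3.3: filterByExpr left 57344 features with 99.72% to 99.95% of each library's counts, TMM factors were 0.592 to 1.227, and a robust quasi-likelihood model had 1 mean for each of the 12 groups (common biological coefficient of variation 0.439). Adjusted p-values are Benjamini-Hochberg over all features tested. The edgeR script was tested on simulated data. Alternatives used DESeq2 1.42.0, limma 3.58.1, other scalings, no filter, FPKM, replicate blocks and leaving out each library. The labels call the replicates biological; nothing says whether captures shared plants or ovules, and p-values measure the spread between these samples.

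The features and lists were chosen with earlier results of these data known. Features were named by rule: the 4 with the largest smallest difference, the 3 most abundant in FPKM in WT, the 2 on each side of the end of the list, the widest and narrowest range of differences, and, per tested contrast, at most 2 called features in each direction with the same sign throughout. Names outside it are given as such. Total counts were 12687779 to 20947644 per library.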

Additional observations from a re-analysis of the deposited data

How the results depend on the processing

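The list depended on how it was made. Of the 100 features, 63 stayed with TMM-scaled CPM, 47 when ranked by the mean of the 6 differences, 44 without both WT replicate 1 libraries at 28 DAP (chosen after seeing the data), and 25 with means of replicates in place of medians, where 58 kept a higher WT value in all 6 pairs. Leaving out 1 library kept 48 to 97: 48, 56 and 59 without replicates 2, 3 and 1 of the WT integument at 28 DAP, and 50 and 57 without replicates 2 and 3 of the WT nucellus at 28 DAP. The cause was not tested.

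The tissue count was 43 in edgeR, 39 to 43 without 1 library and 42 to 53 under the other alternatives, and 37 features were called in all 44 alternatives. Stage counts, 0 in edgeR, were 7 (nucellus, 28 DAP) and 1, 1 and 1 (nucellus 32, integument 28 and 32 DAP) with DESeq2, and 10, 3, 8 and 0 with voom and sample weights, added after seeing the data, which called 3.31%, 1.01%, 2.15% and 1.75% of all tested features. Fitting only the compared groups gave 1 in nucellus at 32 DAP. Without both WT replicate 1 libraries at 28 DAP the counts at 28 DAP were 3 in nucellus and 2 in integument. Without 1 library, nucellus at 28 DAP gave 0 to 5: 5 without MT nucellus 28 DAP replicate 1, 3 without WT nucellus 28 DAP replicate 1, and 1 without each of MT nucellus 32 DAP replicate 3, WT integument 18 DAP replicate 1, and WT nucellus 28 DAP replicates 2 and 3. Integument at 28 DAP gave 0 to 1 (1 without WT integument 28 DAP replicate 1), and the comparisons at 32 DAP gave 0. Every median stage fold change kept its sign.

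Same-numbered nucellus and integument libraries had correlated deviations, with r of 0.0525 to 0.481 and a median of 0.277. For other numbers the median was -0.157. The bound of 0.1 was passed in 17 of 18 and not in all, so the main fit did not take the numbers as pairs. Over the 100 features alone r was 0.13 to 0.726. The main tissue test thus leaves out a sharing between tissues that these values show. Of the nucellus libraries 17 of 18, and of the integument libraries 18 of 18, correlated best with their own number. With a replicate block by cultivar, stage and number the tissue count was 53, beside 42.5% of all tested features. The stage comparisons took another block, by cultivar and number across stages and tissues. Same-numbered libraries of different stages had a median r of -0.0388. Under that block the nucellus count at 28 DAP was 1, beside 0.148%, and the other stage counts were 0. In the list 37 features stayed when each of the 6 differences was the median over same-numbered WT and MT libraries.

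Depth limits low features: 32 averaged under 5 CPM in WT.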

Other observations

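The 100 features chosen by the same rule in the opposite direction, higher in MT in all 6 pairs of tissue and stage, had stage values of the other sign. Their median log2 fold change over 18 DAP was -0.38 and -0.32 in nucellus at 28 and 32 DAP and -0.18 and -0.30 in integument, where the features lower in MT had 0.40, 0.47, 0.29 and 0.31. It was positive for 22, 17, 25 and 16 of the 100. By edgeR at an adjusted p under 0.05, 2 were lower at 28 DAP and 3 at 32 DAP in nucellus, and 0 and 1 in integument, where 0.131%, 0.0924%, 0% and 0.0279% of all tested features were called in either direction. By tissue, 27 of them were higher in nucellus and 22 in integument, beside 16.6% and 18.9% of all tested features. Both lists were chosen on the cultivar difference in the same libraries, and a difference between the lists was not tested.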
